A study of Mus musculus with 42 samples.

Results

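The transcripts described here are those of the tumour suppressor p53 and of 8 genes of its response, followed through RNA immunoprecipitation and sequencing in mouse embryonic stem cells. The set was given by name and holds Trp53 (p53 itself), Mdm2, Mdm4, Ei24, Casp2, Ccng1, Trp53inp1, Sesn2 and Zmat3. All 9 genes were found in both count tables, among 18825 rows in experiment 1 and 19866 in experiment 2, and all 9 passed the filter on low counts in both. The rule names the genes and uses no measured value, but the genes were chosen with earlier results of these data known. Ei24 and Casp2 are in the set also as reported targets of the miR-290 family.

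The cells were mouse embryonic stem cells of the 129S6/SvEvTac background, which carry a yGlob GFP_5xT71BS reporter and a stably transfected FLAG-Cas9::T2A::Blasticidin construct in every group, controls included. They were grown on gelatin in serum with the cytokine LIF, in 3 dishes per group. Anti-HA magnetic beads were applied to the lysates, and RNA was sequenced from the lysate (input) and from the beads (IP) with a stranded total RNA kit. The 4 genotypes were untagged cells, HA-AVI-Tnrc6a cells, in which Tnrc6a carries that tag (tagged), tagged cells labelled Trim71-/- (Trim71KO) and tagged cells labelled Ago2-/- (Ago2KO). Experiment 1 has 18 libraries in 6 groups without Ago2KO, and experiment 2 has 24 libraries in 8 groups, with 3 libraries in each group. The labels do not say whether a knockout line is 1 clone, and nothing ties the dishes to separate derivations of a line. The p-values therefore measure the spread between these dishes, which may be technical.

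p53 is a transcription factor that is stabilised by DNA damage and other stress and then switches on genes for cell-cycle arrest, DNA repair, redox control and cell death. Its own targets Mdm2 and the related Mdm4 bind it, keep it inactive and, through the ubiquitin ligase activity of Mdm2, lead to its degradation. Tnrc6a is a GW182 protein, which binds Argonaute proteins such as Ago2 on microRNA-loaded target RNAs and recruits deadenylases. Trim71 belongs to the TRIM-NHL proteins, binds RNA and is present mainly in embryos and pluripotent cells. The miR-290 family is the most abundant microRNA family of mouse embryonic stem cells and promotes their rapid division and survival. The comparisons ask which RNAs were held by tagged Tnrc6a beyond the bead background, and whether that depended on Trim71 or Ago2.

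The 3p arms of 5 members of the miR-290 cluster with a seed that starts AAGUGC are shown because Ei24 and Casp2 were put in the set as targets of this family. Capitals mark the seed, bases 2 to 8 from the 5′ end. The sequences are RefSeq's, from chromosome 7 of GRCm38.p6.
mmu-miR-290a-3p: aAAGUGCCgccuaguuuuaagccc
mmu-miR-291a-3p: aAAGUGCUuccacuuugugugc
mmu-miR-291b-3p: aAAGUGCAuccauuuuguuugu
mmu-miR-294-3p: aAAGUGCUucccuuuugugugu
mmu-miR-295-3p: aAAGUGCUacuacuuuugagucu
miR-291a-3p, miR-294-3p and miR-295-3p share the whole seed, from which miR-290a-3p and miR-291b-3p differ in the last base. The untranslated regions of the target genes were not searched for matches.

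The promoters are shown for the genes in which RefSeq's window, from 250 bases before to 50 bases after a reference start of the gene, held a match to the 10-base consensus half-site of p53. The half-site reads the same on both strands, and overlapping matches were allowed. The 7 genes with a window had 8 windows, 2 of them of Mdm4, and 4 of the genes held a match. Of all 32851 windows of the same length, 8.36% held one. The genes were picked by name for their tie to p53, and no test was made. No window was listed for Trp53inp1 and Zmat3. The 4 stretches of 30 bases below are written 5′ to 3′ on the gene's strand, with the match in capitals, and distances are counted from the window's reference start. That start lies 11 bases inside the annotated span of Trp53 and 23 bases inside that of Ccng1, and at the end of the span for Ei24 and Mdm2.
Ei24 (chr9:36797335-36797364, minus strand of GRCm38.p6, match starting 10 bases before the reference start): ccagctgccccgtgcggcccGGGCATGCCC
Mdm2 (chr10:117710925-117710954, minus strand, 186 bases before): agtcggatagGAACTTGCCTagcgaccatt
Ccng1 (chr11:40755452-40755481, minus strand, 185 bases before): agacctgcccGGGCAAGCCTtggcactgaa
Trp53 (chr11:69580274-69580303, plus strand, 75 bases before): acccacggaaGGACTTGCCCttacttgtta
A match is a string of letters and no evidence of binding, which was not measured here.

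Libraries held 12587257 to 23657840 counts in experiment 1 and 16296447 to 21026552 in experiment 2. Replicate libraries differed by more than sampling noise in every pair. Levels are given as counts per 1000000 counts of a library (CPM), scaled by TMM factors, which set libraries on a common scale, and as mean ± SD over 3 libraries. Tnrc6a RNA itself was taken down with its tagged protein, at 18118 ± 5692 CPM in tagged and 82.4 ± 8.06 CPM in untagged IP of experiment 2. Ago2 RNA was at 353 ± 34.9 CPM in tagged input and 162 ± 4.76 CPM in Ago2KO input. The libraries labelled Trim71KO did not have less Trim71 RNA in the input, where it stood at 241 ± 21.2 CPM in tagged and 282 ± 3.18 CPM in Trim71KO cells of experiment 1, and at 282 ± 23.5 CPM and 377 ± 9.61 CPM in experiment 2, so the input RNA level does not check that label. All 8 markers of embryonic stem cells, Pou5f1, Sox2 and Nanog among them, were measured, and their summed input level lay between 5763.1 and 7454.1 CPM in every library. Of 8 fibroblast markers only Col1a1 and Thy1 were measured, with a sum of at most 61.8 CPM. Of 8 markers of primed epiblast and early mesoderm, 6 were measured in experiment 1 and 7 in experiment 2, with input sums between 153.2 and 263.2 CPM. All 8 primitive endoderm markers were measured, none of them at 0. Their values stand beside the input comparisons of Ago2KO and Trim71KO with tagged cells.

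In the input of untagged cells, Trp53 was among the more abundant of the 9 transcripts and Casp2 the least abundant. Per length, on the authors' RPKM scale, the order in experiment 1 was Trp53 (80.2 ± 4.42 RPKM), Sesn2 (37.6 ± 1.09 RPKM), Ccng1 (33.8 ± 0.94 RPKM), Ei24 (26.1 ± 0.49 RPKM), Mdm4 (23.1 ± 1.15 RPKM), Mdm2 (17.8 ± 0.52 RPKM), Zmat3 (11.3 ± 0.52 RPKM), Trp53inp1 (9.60 ± 0.08 RPKM) and Casp2 (3.34 ± 0.32 RPKM). Each step of that order was larger than the summed SDs of the neighbours. In experiment 2 Ccng1 (68.6 ± 1.28 RPKM) and Trp53 (64.0 ± 4.91 RPKM) led, less than their summed SDs apart. Mdm4 (50.4 ± 3.19 RPKM) and Trp53inp1 (34.3 ± 2.36 RPKM) followed. Ei24 (29.6 ± 1.15 RPKM), Mdm2 (28.1 ± 1.36 RPKM) and Sesn2 (27.1 ± 1.78 RPKM) formed a run in which each neighbour was within the summed SDs of the next. Zmat3 (16.0 ± 0.20 RPKM) and Casp2 (3.88 ± 0.27 RPKM) were again at the bottom. In the RefSeq annotation Mdm4 and Trp53 have 1 pseudogene each, and Mdm4, Ei24 and Zmat3 overlap other annotated genes, so their counts may hold reads of those copies or neighbours.

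**Figure D1:**
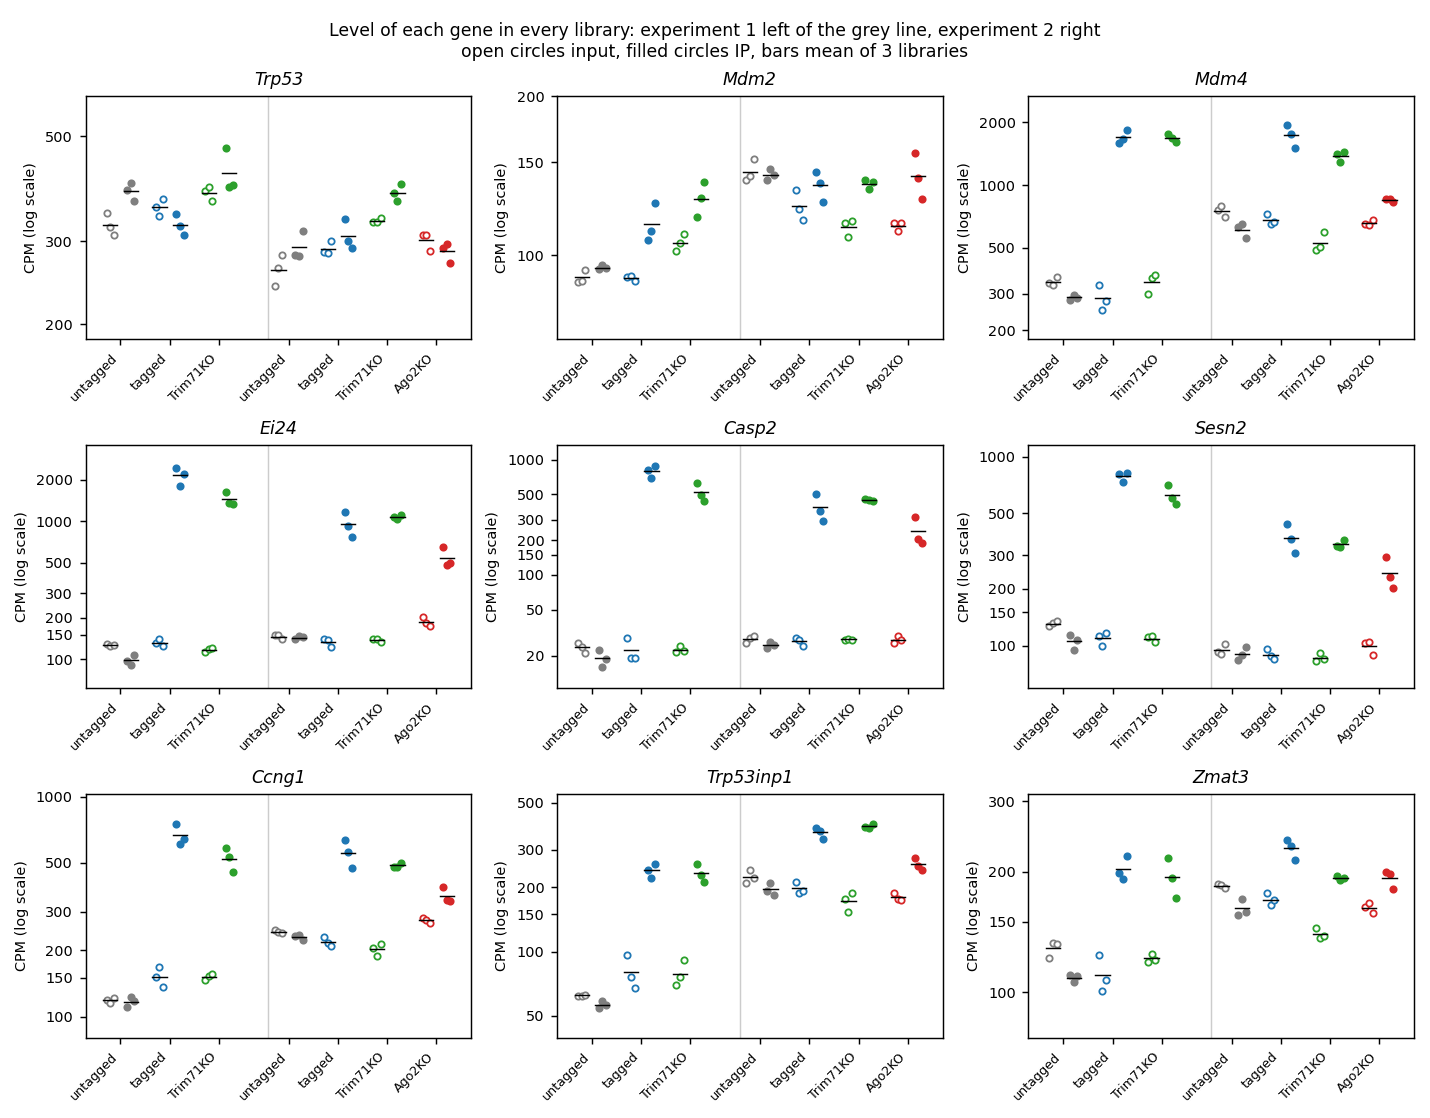
Level of each of the 9 transcripts (CPM, log scale) in every library, by genotype and experiment. Open circles are input, filled circles IP and bars the mean of 3 libraries. In tagged, Trim71KO and Ago2KO cells the filled circles of Casp2, Ei24 and Sesn2 stand far above the open ones, and in untagged cells they do not. Those of Trp53 and Mdm2 stay near the input in all genotypes.

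Tagged Tnrc6a held the transcripts of this set in very unequal amounts. The death genes Casp2 and Ei24 were the most enriched, followed by Sesn2, Mdm4, Ccng1, Trp53inp1 and Zmat3, whereas Trp53 and Mdm2 stayed near the input level. The quantity tested is tag-specific enrichment, which is log2 of IP over input in tagged cells minus the same value in untagged cells. A gene is called at a Benjamini-Hochberg adjusted p under 0.05 in edgeR over all genes tested. In experiment 1 all 9 genes were called, 8 higher and 1 lower, in a comparison that called 56.9% of all 18772 genes tested (28.1% higher and 28.8% lower). In experiment 2, 7 of the 9 were called, all higher, where 27.7% of 19778 genes were called (18.9% higher and 8.77% lower). The median change of the 9 was 2.16 in experiment 1 and 1.43 in experiment 2, beside -0.10 and -0.03 over all genes.

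Casp2 (chr6:42264902-42282508 in GRCm38.p6) encodes an initiator caspase of programmed cell death. In experiment 1 its IP level was 812, 699 and 880.4 CPM in tagged cells and 22.4, 15.9 and 18.8 CPM in untagged cells, with inputs of 28.2, 19.2 and 19.2 CPM and 25.7, 23.9 and 21.2 CPM. Every tagged IP library lay far above every other library of the pair of genotypes, and the inputs overlapped. Its tag-specific enrichment was 5.49 (SE 0.22, adjusted p = 8.49e-16), a 44.9-fold difference that ranked 51 of 18772 genes. In experiment 2 the IP level was 505, 361 and 291 CPM in tagged and 23.3, 26.3 and 24.8 CPM in untagged cells, again with overlapping inputs, and the enrichment was 4.01 (SE 0.23, adjusted p = 2.74e-13), or 16.1-fold, ranked 52 of 19778.

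Ei24 (chr9:36779153-36797334) is a p53-induced gene whose protein sits in the endoplasmic reticulum and has roles in cell death and autophagy. Its IP level in experiment 1 was 2429.6, 1802 and 2208 CPM in tagged cells against 97.1, 90.4 and 107 CPM in untagged cells. Inputs were 131, 139.9 and 124 CPM and 129, 124 and 128 CPM. The IP groups lay far apart while the inputs overlapped. The enrichment was 4.40 (SE 0.16, adjusted p = 1.2e-16), or 21.1-fold. In experiment 2 the IP level was 1174, 916 and 762 CPM in tagged and 139, 146 and 145 CPM in untagged cells, and the enrichment was 2.85 (SE 0.16, adjusted p = 1.37e-13), or 7.21-fold.

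Sesn2 (chr4:132492804-132510456) encodes a sestrin, a stress-inducible protein that restrains mTORC1 signalling and oxidative damage. Its IP level in experiment 2 was 442, 364 and 309 CPM in tagged and 83.6, 88.7 and 98.4 CPM in untagged cells, with no overlap. Enrichment of Sesn2 was 3.16 (SE 0.14, adjusted p = 3.77e-15) and 2.12 (SE 0.16, adjusted p = 3.2e-11) in the 2 experiments. Ccng1 (chr11:40748552-40755309) encodes cyclin G1, a p53 target that recruits a phosphatase to Mdm2. Its IP level in experiment 2 was 638, 560.4 and 475 CPM in tagged and 233, 235 and 224 CPM in untagged cells, again apart. Enrichment of Ccng1 was 2.16 (SE 0.15) and 1.43 (SE 0.11) in the respective experiments. Trp53inp1 (chr4:11156441-11174379), a stress-induced protein that promotes p53 activity and autophagy, reached 1.73 (SE 0.16) and 1.07 (SE 0.10). Zmat3 (chr3:32334792-32365665), a zinc-finger RNA-binding protein induced by p53, was the least enriched of the 7 genes called higher in both experiments, at 1.12 (SE 0.13) and 0.61 (SE 0.08). The adjusted p of Ccng1, Trp53inp1 and Zmat3 was at most 6.77e-07 in either experiment (edgeR).

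The p53 inhibitors Mdm4 (chr1:132986105-133030587) and Mdm2 (chr10:117688875-117710758) had very different values. Mdm4 rose to 1945, 1762 and 1503 CPM in tagged IP of experiment 2, against 626, 647 and 558 CPM in untagged IP. Mdm4 enrichment reached 2.82 (SE 0.15, adjusted p = 9.24e-14) in experiment 1, and 1.66 (SE 0.12, adjusted p = 1.06e-11) in experiment 2. Mdm2 in experiment 2 was at 144, 137 and 126 CPM in tagged and 139, 146 and 142 CPM in untagged IP, and these groups overlapped. Its enrichment was 0.28 (SE 0.12, adjusted p = 0.0448) in experiment 1 and 0.15 (SE 0.09, adjusted p = 0.27) in experiment 2. The call for Mdm2 in experiment 1 was lost with the replicate block by culture (0.27, adjusted p = 0.0755), without tagged IP replicate 3 (0.20, adjusted p = 0.146) and without untagged input replicate 3 (0.30, adjusted p = 0.0506). The promoter window of Mdm2 holds a half-site match, as those of Ei24, Ccng1 and Trp53 do, and the 2 windows of Mdm4 hold none. A link between these matches and the enrichment was not tested.

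Trp53 (chr11:69580348-69591873) was the 1 gene of the set not called higher in either experiment. In experiment 1 its IP level was 342, 322 and 309 CPM in tagged and 384, 398 and 364 CPM in untagged cells, so that every tagged library lay below every untagged one. Its tag-specific value was -0.36 (SE 0.13, adjusted p = 0.0176), a call that 5 of 12 single-library omissions ended, with values from -0.40 to -0.28 over all 12. Those 5 were untagged input replicates 2 (-0.31, adjusted p = 0.0759) and 3 (-0.28, adjusted p = 0.106), tagged input replicate 3 (-0.30, adjusted p = 0.0854) and untagged IP replicates 1 (-0.31, adjusted p = 0.0687) and 2 (-0.29, adjusted p = 0.0844). In experiment 2 the groups overlapped and the value was -0.07 (SE 0.09, adjusted p = 0.644), with a 95% interval of -0.26 to 0.12.

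**Figure D2:**
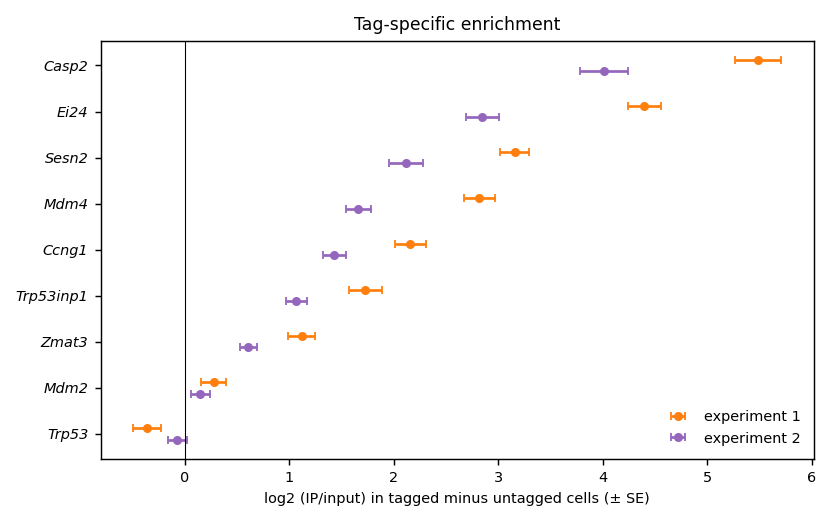
Tag-specific enrichment of the 9 genes (log2 IP over input in tagged minus untagged cells, points with SE bars) in experiment 1 (orange) and experiment 2 (purple). The order of the genes is the same in both experiments from Casp2 at 5.49 and 4.01 down to Trp53 at -0.36 and -0.07, and the values of the 7 enriched genes are larger in experiment 1.

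The size of the enrichment differed between the experiments. In a joint fit of all 42 libraries, 7 of the 9 genes had larger tag-specific enrichment in experiment 1 than in experiment 2, in a test that called 28.5% of 18620 genes. The difference was largest for Ei24, at 1.66 (SE 0.23, adjusted p = 5.23e-06, edgeR), and Casp2, at 1.58 (SE 0.34, adjusted p = 0.000728). It was 0.23 (SE 0.14, adjusted p = 0.225) for Mdm2 and -0.19 (SE 0.15, adjusted p = 0.375) for Trp53, neither of which was called. Under library size alone Mdm2 was called, at 0.38 (adjusted p = 0.0425). The bait RNA Tnrc6a had tag-specific values of 8.34 (SE 0.28) and 7.90 (SE 0.31), and its part in the difference was not tested.

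In Ago2KO cells, Tnrc6a held less Ei24, Mdm4, Ccng1, Sesn2 and Trp53inp1 relative to their input. Ago2-dependent enrichment is log2 of IP over input in Ago2KO cells minus that in tagged cells, measured in experiment 2. These 5 of 9 genes were called lower and none higher, where 4.16% of all genes were called (3.77% lower and 0.384% higher). The median of the 9 was -0.74, and that of all genes was 0. Trp53 (-0.17, SE 0.09) and Mdm2 (0.19, SE 0.10), which were not called for tag-specific enrichment in this experiment, were not called here either.

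Ei24 had the largest loss of the set. Its IP level was 653, 482 and 497 CPM in Ago2KO and 1174, 916 and 762 CPM in tagged cells, while its input was 201, 181 and 175 CPM and 140.5, 138 and 123 CPM. Every Ago2KO library was therefore lower than every tagged one in IP and higher in input. The change in enrichment was -1.28 (SE 0.15, adjusted p = 4.28e-06), which took IP over input from 7.10-fold in tagged to 2.93-fold in Ago2KO cells. In untagged cells the ratio was 0.987.

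Mdm4 and Ccng1 followed. Mdm4 was at 856, 852 and 824 CPM in Ago2KO IP, below every tagged IP library, with an input (651, 644 and 678 CPM) that overlapped that of tagged cells (724, 649 and 665 CPM). Its change was -1.0 (SE 0.12, adjusted p = 3.01e-06), from 2.56-fold to 1.28-fold over input. Ccng1 was at 388, 341 and 336 CPM in Ago2KO IP and changed by -0.98 (SE 0.11, adjusted p = 1.04e-06), from 2.55-fold to 1.29-fold. Both thus stood in Ago2KO cells slightly above the input, where untagged cells had ratios of 0.810 for Mdm4 and 0.948 for Ccng1.

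Sesn2 fell by 0.76 (SE 0.16, adjusted p = 0.00343) on the log2 scale, from 4.14-fold to 2.45-fold over input. Its IP level was 293, 231 and 203 CPM in Ago2KO cells, and the highest of these libraries stayed below the lowest tagged one. Trp53inp1 had a smaller change of -0.36 (SE 0.10, adjusted p = 0.0457), with IP levels of 276, 251 and 242 CPM in Ago2KO and 381, 368 and 339 CPM in tagged cells. Those groups did not overlap, but the call was lost in 9 of 12 single-library omissions (values from -0.44 to -0.33, the largest adjusted p being 0.137 without tagged input replicate 2). The call remained without tagged input replicate 1, tagged IP replicate 3 and Ago2KO IP replicate 1. Zmat3 had a change of -0.18 (SE 0.08, adjusted p = 0.299), which was not called.

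Casp2 stayed the most enriched gene of the set in Ago2KO cells, at 8.68-fold over input against 14.5-fold in tagged cells, and its change did not pass the test. Its IP level was 319.8, 204 and 191 CPM in Ago2KO and 505, 361 and 291 CPM in tagged cells. The highest Ago2KO library lay above the lowest tagged one, so the groups overlapped. The change was -0.74 (SE 0.22, adjusted p = 0.0553), with a 95% interval of -1.19 to -0.29. It was called without tagged IP replicate 3 (-0.94, adjusted p = 0.00364) and without Ago2KO IP replicate 1 (-1.01, adjusted p = 0.00043). It was also called with the replicate number as a block (adjusted p = 0.00779), a fit that pairs libraries by number. The replicate block by culture, which pairs input and IP of the same genotype and number, called it too (-0.75, adjusted p = 0.0113). The deviations of same-numbered tagged and Ago2KO libraries correlated at 0.58, 0.07 and 0.42 in IP and at 0.22, 0 and 0.22 in input, so that not every pair passed the 0.1 set for pairing. Casp2 IP was lower in Ago2KO in all 3 same-numbered pairs. In these same libraries the bait RNA Tnrc6a was at 24216, 17194 and 12945 CPM in tagged IP and 31194, 17218 and 14785 CPM in Ago2KO IP. Within each group the library with the most Tnrc6a RNA was also the one with the most Casp2, Ei24, Sesn2 and Ccng1, and the part of this in the results was not tested.

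Ago2KO cells had more enrichment than untagged cells for 8 of the 9 genes, the 7 called in tagged cells and Mdm2, where 20.9% of all genes were called (15.8% higher and 5.11% lower). It was 9.71-fold for Casp2, 2.97-fold for Ei24 and 2.58-fold for Sesn2. The remaining values were 1.62-fold for Trp53inp1, 1.58-fold for Mdm4, 1.37-fold for Ccng1, 1.35-fold for Zmat3 and 1.26-fold for Mdm2. The Mdm2 value (0.33, SE 0.09, adjusted p = 0.0116) lost its call without Ago2KO IP replicate 1 (0.26, adjusted p = 0.0553) and under library size alone (0.23, adjusted p = 0.0772). Trp53 was at 0.847-fold (log2 -0.24, SE 0.09, adjusted p = 0.072) and was not called, but was called without untagged input replicate 3 (-0.29, adjusted p = 0.036) and without untagged IP replicates 1 (-0.29, adjusted p = 0.0449) or 2 (-0.29, adjusted p = 0.0399). With all libraries it was called lower under RLE size factors (-0.28, adjusted p = 0.0372), library size alone (-0.34, adjusted p = 0.008), DESeq2 (-0.28, adjusted p = 0.0232) and the replicate block by culture (-0.24, adjusted p = 0.0322).

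**Figure D3:**
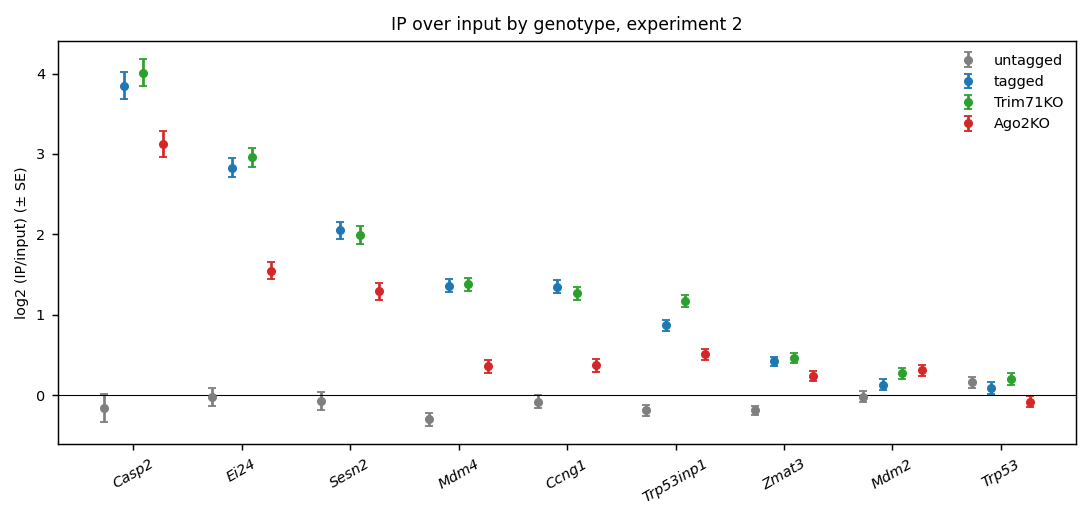
Log2 ratio of IP to input (points with SE bars) of the 9 genes in the 4 genotypes of experiment 2. Ago2KO points lie below tagged points for Ei24, Mdm4, Ccng1, Sesn2, Casp2 and Trp53inp1, of which the Casp2 difference was not called, and by less for Zmat3 and Trp53, also not called. The Trim71KO points lie nearer to the tagged ones, with the largest gap at Trp53inp1 (log2 1.17 against 0.87), and untagged points lie near 0.

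In the cells labelled Trim71KO no gene of the set was called for a change of enrichment in either experiment. Of all genes, 3.74% were called in experiment 1 (0.272% higher and 3.47% lower) and 1.49% in experiment 2 (0.753% higher and 0.738% lower). At an unadjusted p under 0.05, experiment 1 held 5 of the 9 (Casp2, Ei24, Ccng1 and Sesn2 lower, Trp53 higher), where 15% of all genes passed (4.3% higher and 10.7% lower), and experiment 2 held only Trp53inp1, where 15.2% of all genes passed. DESeq2 also called 0 of the 9 in each experiment. The values of all 9 lay between -0.63 and 0.27 in experiment 1 and between -0.08 and 0.29 in experiment 2.

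Casp2 IP of experiment 1 was 629, 496 and 440.3 CPM in the libraries labelled Trim71KO, all below the 812, 699 and 880.4 CPM of tagged cells. Its change in enrichment was -0.63 (SE 0.21, adjusted p = 0.113), with a 95% interval of -1.06 to -0.20. It was called without tagged input replicate 1 (-0.74, adjusted p = 0.0386), without Trim71KO IP replicate 1 (-0.72, adjusted p = 0.0158) and with the replicate number as a block (-0.65, adjusted p = 0.0443). Ei24 was at 1626, 1363 and 1329 CPM, also below every tagged library, and had a value of -0.40 (SE 0.15, adjusted p = 0.179). It was called without tagged IP replicate 2 (-0.51, adjusted p = 0.0429). The bait RNA Tnrc6a changed in the same comparison by -0.86 (SE 0.24, adjusted p = 0.0476, edgeR), while its input level rose by 0.48 (SE 0.17, adjusted p = 0.038). In experiment 2 the enrichment of Tnrc6a changed by -0.40 (SE 0.28, adjusted p = 0.542). The part of the bait in these values was not tested.

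In experiment 2 the IP level of Casp2 was 457, 448 and 434 CPM in the libraries labelled Trim71KO, inside the range of the tagged ones, and the change was 0.16 (SE 0.22, adjusted p = 0.8) with an interval of -0.29 to 0.61. Ei24 was at 1073, 1039 and 1105 CPM, again inside the tagged range, with a change of 0.14 (SE 0.15, adjusted p = 0.747) and an interval of -0.18 to 0.45. Trp53inp1 had the largest value, 0.29 (SE 0.10, adjusted p = 0.162). The difference between the experiments in this contrast was -0.79 (SE 0.33, adjusted p = 0.257, edgeR) for Casp2 and -0.55 (SE 0.23, adjusted p = 0.26) for Ei24, and none of the 9 genes was called (0.0967% of all genes were). Same-numbered tagged and Trim71KO libraries of experiment 2 deviated together, and with the replicate block the all-gene calls in this comparison went from 149 higher and 146 lower to 265 and 205, with none of the 9 genes among them.

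Over the untagged background, the libraries labelled Trim71KO had 7 of the 9 genes called in experiment 1 (54.9% of all genes called, 25.6% higher and 29.3% lower) and 8 in experiment 2 (38.7% of all genes called, 23% higher and 15.7% lower), all of them higher. The eighth gene was Mdm2, which was not called in tagged cells of experiment 2. Casp2 was 29-fold and 18-fold above untagged cells, Ei24 16.0-fold and 7.89-fold, and Sesn2 7.11-fold and 4.17-fold. Mdm2 was at 0.21 (SE 0.12, adjusted p = 0.119) in experiment 1 and 0.29 (SE 0.10, adjusted p = 0.0159) in experiment 2. The omission of any 1 of the 12 libraries brought Mdm2 under the threshold in experiment 1 (adjusted p 0.00769 to 0.0448), as did RLE size factors (0.27, adjusted p = 0.0479), library size alone (0.36, adjusted p = 0.0148), DESeq2 (0.27, adjusted p = 0.0217) and a fit of only the groups compared (0.31, adjusted p = 0.0136). The median of all genes moved too. It was -0.15 in the reported fit, -0.04 to -0.02 over the omissions, -0.10 under RLE size factors and -0.01 under library size alone. Library size alone (0.14, adjusted p = 0.257) and 4 omissions ended the Mdm2 call in experiment 2 (adjusted p 0.0504 to 0.056, untagged input replicate 3, untagged IP replicates 1 and 3 and Trim71KO IP replicate 1). Trp53 stood at -0.09 (SE 0.13, adjusted p = 0.555) and 0.04 (SE 0.09, adjusted p = 0.797).

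The direct comparison of the 2 knockout-labelled lines gave 6 of 9 genes with more enrichment in Trim71KO than in Ago2KO cells, where 11.8% of all genes were called (8.94% higher and 2.86% lower). This comparison shares its Ago2KO libraries with the one against tagged cells. Ei24 differed by 1.41 (SE 0.15, adjusted p = 3.76e-07) and Mdm4 by 1.02 (SE 0.12, adjusted p = 7.36e-07). Casp2, which was not called against tagged cells, differed here by 0.90 (SE 0.22, adjusted p = 0.00651), with IP levels of 457, 448 and 434 CPM against 319.8, 204 and 191 CPM and no overlap. Ccng1 (0.90, SE 0.11), Sesn2 (0.70, SE 0.16) and Trp53inp1 (0.66, SE 0.10) were called as well, with adjusted p of at most 0.00336. The values for Trp53 (0.27, SE 0.09, adjusted p = 0.0551), Zmat3 (0.22, SE 0.08, adjusted p = 0.0783) and Mdm2 (-0.04, SE 0.10, adjusted p = 0.852) were not called, and the Trp53 call appeared with DESeq2 (adjusted p = 0.0322) and without Ago2KO input replicate 3 (0.31, adjusted p = 0.0471), with the replicate block by culture (adjusted p = 0.0225) and with only the groups compared (0.31, adjusted p = 0.0302), and that of Zmat3 with DESeq2 (adjusted p = 0.0423).

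In the input, which reports the RNA present in the lysate, Ei24 and Ccng1 were higher in Ago2KO than in tagged cells, and the other 7 were not called. Of all genes, 6.96% were called in this comparison, 4.38% higher and 2.57% lower. Ei24 input was 201, 181 and 175 CPM in Ago2KO and 140.5, 138 and 123 CPM in tagged cells, without overlap, a change of 0.47 (SE 0.11, adjusted p = 0.0077). Ccng1 input was 282, 275 and 267 CPM against 231, 216 and 209.7 CPM, also without overlap, a change of 0.33 (SE 0.08, adjusted p = 0.0079). Both calls were lost without tagged input replicate 3 (Ei24 0.41, adjusted p = 0.0554, and Ccng1 0.30, adjusted p = 0.0512) and without Ago2KO input replicate 1 (Ei24 0.40, adjusted p = 0.0757, and Ccng1 0.30, adjusted p = 0.0642). Casp2 input did not move beyond its spread, at 27.4 ± 2.06 CPM and 26.7 ± 2.10 CPM, a change of 0.04 (SE 0.16, adjusted p = 0.932) with an interval of -0.29 to 0.38. In bulk RNA, a change in the number of cells of a type and a change in the RNA per cell cannot be told apart. Of the 8 primitive endoderm markers, 4 were called lower in Ago2KO input, where their sum was 56.7 to 65.3 CPM against 65.3 to 82.5 CPM in tagged input, and their part in these changes was not tested.

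The input comparison between libraries labelled Trim71KO and tagged ones called 1 gene of the set in experiment 1 and 4 others in experiment 2, with changes of at most 0.36 in size on the log2 scale. In experiment 1 only Mdm2 rose, by 0.22 (SE 0.08, adjusted p = 0.0381), from 91.0, 91.5 and 89.2 CPM to 102, 105 and 109.7 CPM, where 34% of all genes were called (16.5% higher and 17.4% lower). Its groups did not overlap, yet 5 of 6 single-library omissions ended the call (adjusted p 0.0533 to 0.152), that of tagged input replicate 2 being the exception. Mdm4 (0.25, SE 0.10, adjusted p = 0.0641) was called higher without tagged input replicate 1 (0.35, adjusted p = 0.0122) and without Trim71KO input replicate 1 (0.33, adjusted p = 0.0275). In experiment 2 Trp53 rose by 0.20 (SE 0.07, adjusted p = 0.0253), and Mdm4 (-0.36, SE 0.08, adjusted p = 0.00155), Zmat3 (-0.28, SE 0.06, adjusted p = 0.000394) and Trp53inp1 (-0.20, SE 0.07, adjusted p = 0.0479) fell, where 27.2% of all genes were called (13.5% higher and 13.7% lower). Mdm4 input was 486, 502 and 596 CPM in the libraries labelled Trim71KO and 724, 649 and 665 CPM in tagged ones, all lower. Zmat3 input was 145, 137 and 138 CPM and 177, 165 and 169.5 CPM, also without overlap.

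The Mdm4 and Zmat3 calls of experiment 2 held in every single-library omission. The Trp53 call was lost without tagged input replicates 1 or 2 and without Trim71KO input replicates 2 or 3 (adjusted p 0.053 to 0.0858), and under library size alone (0.13, adjusted p = 0.134). That of Trp53inp1 was lost without tagged input replicates 1 or 3 and without Trim71KO input replicates 1 or 2 (values from -0.21 to -0.12, adjusted p 0.0704 to 0.28), and with RLE size factors (adjusted p = 0.0844), no filter on low counts (adjusted p = 0.0611) and DESeq2 (adjusted p = 0.0805). The experiments differed by 0.62 (SE 0.13, adjusted p = 0.00088, edgeR) for Mdm4, 0.43 (SE 0.11, adjusted p = 0.00322) for Zmat3 and 0.36 (SE 0.10, adjusted p = 0.00801) for Mdm2, in a test that called 22.8% of all genes. Of the 8 primitive endoderm markers, 6 were called lower in Trim71KO input in each experiment. Their sum was 92.4 to 99.3 CPM against 129.7 to 213.4 CPM in tagged input of experiment 1, and 74.2 to 82.6 CPM against 65.3 to 82.5 CPM in experiment 2, where 1 marker was called higher. The sum of the fibroblast markers Col1a1 and Thy1 was 58.0 to 61.8 CPM against 22.6 to 24.5 CPM in experiment 1 and 49.5 to 51.9 CPM against 34.2 to 35.8 CPM in experiment 2. That of the epiblast and mesoderm markers was 184.6 to 195.3 CPM against 153.2 to 193.5 CPM, and 233.7 to 263.2 CPM against 160.8 to 170.1 CPM. Single epiblast and mesoderm markers went both ways, with 2 called higher and 1 lower in experiment 1. In experiment 2, 3 were called higher and 2 lower, with a median log2 change of -0.56. The fibroblast markers also went opposite ways in experiment 2 (log2 -0.35 and 0.64), with 1 called higher. The part of these markers in the input changes was not tested.

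Against untagged cells, tagged input of experiment 1 held more Ccng1 (0.35, SE 0.10, adjusted p = 0.0289) and Trp53inp1 (0.36, SE 0.12, adjusted p = 0.0465), where 10.6% of all genes were called (5.69% higher and 4.87% lower). The experiments differed here by 0.48 for Ccng1 and 0.52 for Trp53inp1 in the joint fit, where 2.89% of all genes were called. In experiment 2 none of the 9 was called by edgeR, where 1.39% of all genes were (0.809% higher and 0.581% lower), and DESeq2 also called 0. At an unadjusted p under 0.05 edgeR held Mdm2 (-0.21) and Trp53inp1 (-0.18) as lower and Trp53 (0.14) as higher. Of all genes, 12.1% passed (5.72% higher and 6.37% lower). Ccng1 input of experiment 1 was 151, 168 and 136 CPM in tagged and 119, 115 and 122 CPM in untagged cells, without overlap. Its call was lost without any 1 of the 3 untagged input replicates (adjusted p 0.0678 to 0.0983) and without tagged input replicate 2 (0.28, adjusted p = 0.168). The Trp53inp1 call was lost in every omission but that of tagged input replicate 3 (adjusted p 0.0854 to 0.157). Mdm4, with -0.26 (SE 0.10, adjusted p = 0.107), was called lower only without tagged input replicate 1 (-0.35, adjusted p = 0.0291). Between the knockout-labelled lines, Ccng1 (-0.44, SE 0.08), Ei24 (-0.43, SE 0.11), Mdm4 (-0.32, SE 0.08) and Zmat3 (-0.22, SE 0.06) were lower in Trim71KO than in Ago2KO input, with adjusted p of at most 0.00468 and 28.4% of all genes called (13.2% higher and 15.1% lower). Without Trim71KO input replicate 1 Mdm4 (-0.25, adjusted p = 0.0607), and without Ago2KO input replicate 2 Zmat3 (-0.17, adjusted p = 0.0581), were no longer called.

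**Figure D4:**
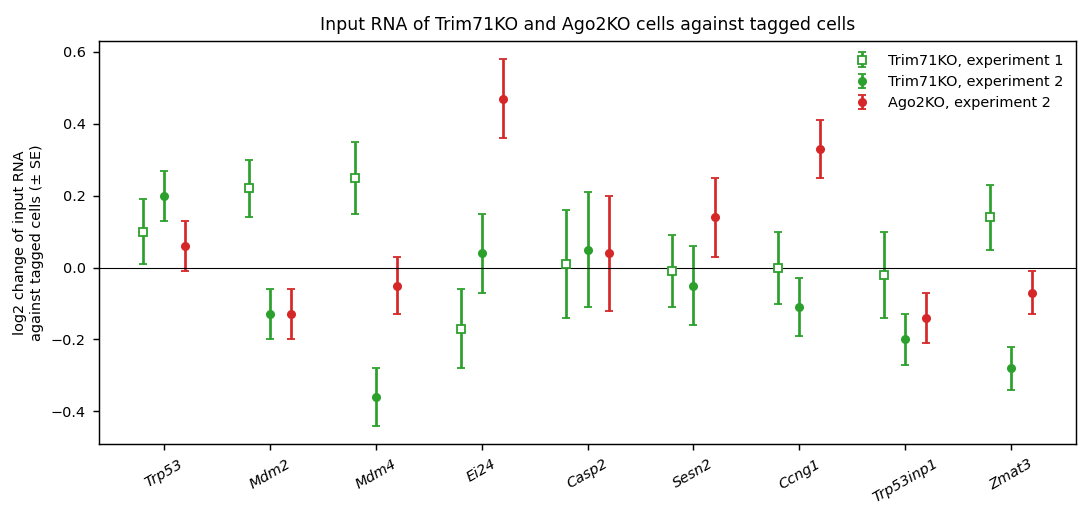
Log2 change of input RNA against tagged cells (points with SE bars) for the 9 genes in libraries labelled Trim71KO of experiment 1 (open squares) and experiment 2 (green circles) and in Ago2KO cells (red circles). Ei24 and Ccng1 stand out in Ago2KO cells at 0.47 and 0.33, and Mdm4 lies above 0 in experiment 1 and below 0 in experiment 2 of Trim71KO.

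Other genes of the p53 pathway, a list of 51 of which 50 were tested in each experiment, were also unevenly held by tagged Tnrc6a. In experiment 1, 23 were called higher and 12 lower for tag-specific enrichment (median 0.28), and in experiment 2, 19 higher and 5 lower (median 0.14). The shares of all genes called were 28.1% higher and 28.8% lower in experiment 1, and 18.9% higher and 8.77% lower in experiment 2. Among 11 targets for cell-cycle arrest and signalling, 7 were called higher and 1 lower in each experiment. Cdkn1a, which encodes the cyclin-dependent kinase inhibitor p21, led with 5.84 (SE 0.14) and 4.65 (SE 0.21), and Ccng2, cyclin G2, followed with 5.67 (SE 0.25) and 4.52 (SE 0.22). Btg2, an antiproliferative cofactor of deadenylases, reached 4.40 (SE 0.12) in experiment 1. The cell-death targets had 6 higher and 1 lower of 11 in experiment 1 and 3 higher and 1 lower of 12 in experiment 2. Of the 12 targets for metabolism, redox and repair, 6 and 5 were higher and 4 and 2 lower, with the translesion polymerase gene Polk at 3.35 (SE 0.23) in experiment 2. The regulators and relatives of p53 had 4 higher and 6 lower of 16 in experiment 1, and 4 higher and 1 lower of 15 in experiment 2.

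The lower calls of experiment 1 were led by Trp53bp1 (-1.99, SE 0.18), Rps27l (-1.34, SE 0.17) and Ephx1 (-1.07, SE 0.33), and those of experiment 2 by Sfn (-0.52, SE 0.15), Ephx1 (-0.50, SE 0.17) and Chek1 (-0.43, SE 0.11). Trp53bp1, a DNA-repair protein that binds p53, was at 50187 ± 7951 CPM in untagged IP and 79.0 ± 3.25 CPM in untagged input of experiment 1. It was therefore recovered on the beads from cells without the tag, and its tag-specific value is measured against that background.

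In Ago2KO cells 2 of the 50 pathway genes were called lower in enrichment and none higher (median 0.01 to 0.07 in the regulators and cell-death lists, -0.19 in the arrest list and -0.07 in the metabolism list). Of all genes, 3.77% were called lower, so this count is near the background. The 2 genes were Pidd1 (-0.60, SE 0.16, adjusted p = 0.0296), whose protein scaffolds the activation of caspase-2, and Sirt1 (-0.36, SE 0.09, adjusted p = 0.0182), a deacetylase of p53. Pidd1 IP was 27.4 ± 4.86 CPM in Ago2KO and 47.5 ± 6.69 CPM in tagged cells. Cdkn1a IP was 1474 ± 409 CPM in Ago2KO and 1671 ± 399 CPM in tagged cells, within their spread.

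In the libraries labelled Trim71KO, 7 pathway genes were called lower and 1 higher in experiment 1, and 1 lower in experiment 2, beside 3.47%, 0.272% and 0.738% of all genes. Ccng2 was the gene lower in both, at -2.06 (SE 0.24, adjusted p = 4.27e-06) and -1.5 (SE 0.21, adjusted p = 0.000123). Its IP level in experiment 2 fell from 1334 ± 306 CPM in tagged to 402 ± 43.8 CPM in Trim71KO cells, with 879 ± 228 CPM in Ago2KO cells. Btg2 (-1.21, SE 0.11) and Polk (-0.91, SE 0.15) followed in experiment 1, and Ppm1d, a phosphatase that turns p53 signalling off, was the 1 gene called higher (0.52, SE 0.13). Ccng2 also had less enrichment in Trim71KO than in Ago2KO cells (-1.22, SE 0.21, adjusted p = 0.00017), opposite to Plk3 (0.76, SE 0.18), Pidd1 (0.69, SE 0.16) and Chek2 (0.63, SE 0.10), which with 6 others made 9 higher and 1 lower, beside 8.94% and 2.86% of all genes.

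Input of Trim71KO cells had 12 pathway genes higher and 8 lower in experiment 1, and 11 higher and 8 lower in experiment 2, beside 16.5% higher and 17.4% lower, and 13.5% higher and 13.7% lower, of all genes. Ackr3, a scavenging chemokine receptor, rose in both (1.51, SE 0.15, and 1.10, SE 0.12), as did Ephx1, an epoxide hydrolase (1.38, SE 0.20, and 0.63, SE 0.11). Cdkn1a rose in experiment 1 (1.04, SE 0.10, adjusted p = 3.45e-08). Pmaip1, which encodes the death-promoting BH3-only protein Noxa, fell in both (-1.24, SE 0.10, and -0.58, SE 0.07). In Ago2KO input 2 were called higher, Gadd45a (0.63, SE 0.17) and Sirt1 (0.27, SE 0.06), beside 4.38% of all genes, and 4 lower, beside 2.57%, led by Sfn (-0.64, SE 0.11), Pmaip1 (-0.59, SE 0.07) and Sesn1 (-0.31, SE 0.08). Tagged against untagged input gave 4 higher and 5 lower in experiment 1 and 1 lower in experiment 2, beside 5.69%, 4.87% and 0.581% of all genes.

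Across the 14 group means, centred within each experiment, the genes whose pattern was most like that of Ei24 were Crebl2, Stx6 and Stk11, each with a Pearson correlation of 0.998 among 12446 genes compared. Within the set, Ei24 was most like Sesn2 (0.996), Casp2 (0.993) and Ccng1 (0.979), and least like Trp53 (0.268). Trp53 was most like Eefsec (0.916), Fpgs (0.902) and Nol6 (0.883), and its correlation with the other 8 genes ran from -0.017 with Zmat3 to 0.284 with Casp2. These values describe 14 groups in which all genes share the libraries, their depth and the step from input to IP, and carry no test.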

How the data were processed

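The authors deposited, 1 table per experiment, holding for every gene the raw counts, RPKM values and a gene length column (per the file headers, named for QuasR) beside them. The submitters' processing notes list bcl2fastq 2.20, STAR 2.7.3a and the builds GRCm38 and mm10, with no role. The counting tool, annotation and strand setting are not given in the sources used here. Column names followed the sample titles in experiment 1. In experiment 2, columns named untagged were matched to titles that read Ctrl, and columns named HA.Tnrc6a to titles that read Tnrc6a.

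Counts were tested with edgeR 4.0.16 (R 4.3.3; TMM, filterByExpr, quasi-likelihood F test, a mean per group, all groups of an experiment in a single fit) over 18772 and 19778 genes. The SE is the log2 change over the square root of F. Intervals are 95%. The fit was run on simulated counts with known changes. These were drawn with the spread that edgeR estimates, so the run cannot show how well that spread describes the IP libraries. The authors' RPKM values served only to order genes per length. Alternatives were other scalings, no filter, DESeq2 1.42.0, fewer groups, replicate blocks and omission of each library.

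Replicate numbers come from the titles. Same-numbered libraries deviated together only in experiment 2, between tagged and Trim71KO (correlations 0.21, 0.27 and 0.30 in input, 0.32, 0.18 and 0.33 in IP), and between tagged input and IP.

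The 9 genes, the targeted Tnrc6a, Trim71 and Ago2, the 51 pathway genes and the 4 marker lists were chosen with earlier results of these data known. Not every one of the 9 genes and the targeted genes is given for every comparison. Pathway genes were named as up to 3 each way with the largest called change per comparison and a mean log2 CPM of at least 2, with Ei24 and Trp53 each set beside the 3 genes most correlated over group mean log2 CPM.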

Additional observations from a re-analysis of the deposited data

Results flagged for a closer look

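The same contrast was measured in both experiments, and its values differed between them for several genes of the set by a test of the difference in a joint edgeR fit (experiment 1 minus experiment 2, Benjamini-Hochberg adjusted p over 18620 genes). Tag-specific enrichment was larger in experiment 1 by 1.66 for Ei24, 1.58 for Casp2, 1.27 for Mdm4 (SE 0.19, adjusted p = 1.06e-05), 1.13 for Sesn2 (SE 0.22, adjusted p = 0.000241), 0.83 for Ccng1 (SE 0.18, adjusted p = 0.000832), 0.77 for Trp53inp1 (SE 0.20, adjusted p = 0.00325) and 0.61 for Zmat3 (SE 0.15, adjusted p = 0.00219). Of all genes, 28.5% differed in this test.

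The change of input RNA from untagged to tagged cells differed by 0.52 for Trp53inp1 (SE 0.14, adjusted p = 0.0306) and 0.48 for Ccng1 (SE 0.13, adjusted p = 0.0318), where 2.89% of all genes differed. The change of input RNA from tagged cells to those labelled Trim71KO differed by 0.62 for Mdm4, 0.43 for Zmat3 and 0.36 for Mdm2, where 22.8% of all genes differed. No sample of a group was tested as an outlier, since each group holds 3 libraries.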

How the results depend on the processing

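Over the 9 genes and 15 comparisons, 107 of 135 calls stayed on the same side of the threshold under every alternative and every omission of a library, and no called value changed its direction. The count of called genes in Trim71-dependent enrichment of experiment 1 was 0 in the reported fit, 1 with the replicate block and 0 to 1 over omissions, and in experiment 2 it was 0, and 1 with the replicate block by culture (Trp53inp1, adjusted p = 0.05). For tagged against untagged input of experiment 1 it was 2, with 0 under library size alone, 1 with the replicate block, 1 with only the groups compared and 0 to 2 over omissions. For Trim71KO against tagged input of experiment 1 it was 1, with 2 under library size alone, 2 with DESeq2 and 0 to 1 over omissions, and in experiment 2 it was 4, with 2 to 3 over omissions. For Ago2KO against tagged input it was 2, with 0 to 2 over omissions. In Ago2-dependent enrichment it was 5, with 4 to 6 over omissions. The genes that differed between experiments in tagged against untagged input numbered 2, and 1 under library size alone. Tag-specific enrichment of experiment 2 had 3745 genes higher and 1734 lower, which became 2861 and 4971 under library size alone, where the median of all genes was -0.24 and Trp53 was called lower (-0.28, adjusted p = 0.017). The Trp53inp1 loss in Ago2KO cells was not called under library size alone (-0.25, adjusted p = 0.241) or with only the groups compared (-0.39, adjusted p = 0.0551). Mdm2 enrichment in Trim71KO over untagged cells of experiment 1 was not called in the reported TMM fit (0.21) and was called in each of the 12 omissions (0.29 to 0.37) and in 4 of 7 other settings. The median of all genes in that comparison was -0.15 in the reported fit and -0.04 to -0.02 in those omissions. The cause of these shifts was not tested.

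With 3 dishes per group, no single size of change divided calls from the rest, since 0.20 was called for Trp53 input of Trim71KO in experiment 2 and -0.74 was not for Casp2 enrichment in Ago2KO. Reads carry no stated molecular identifiers, so depth gives counting precision only.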

Other observations

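The untagged cells of the 2 experiments differed in the input level of several p53 response genes. On a common TMM scale, Trp53inp1 was at 64.8 ± 0.48 CPM in experiment 1 and 216.8 ± 15.0 CPM in experiment 2, a 3.34-fold higher level with no overlap between libraries. Mdm4 was 2.04-fold, Ccng1 1.90-fold, Mdm2 1.47-fold and Zmat3 1.33-fold higher in experiment 2. Casp2 (1.09-fold) and Ei24 (1.06-fold) were nearly level, while Trp53 (0.746-fold) and Sesn2 (0.674-fold) were lower in experiment 2. Among 12895 genes with a mean of at least 4 CPM, 1.68% were at least 2-fold higher and 0.574% at least 2-fold lower in experiment 2, with a median log2 ratio of -0.02.

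Of 49 other pathway genes compared, 33 were above and 16 below their level in experiment 1 (median 1.13-fold), 5 were at least 2-fold higher and 0 at least 2-fold lower. The highest included Ccng2 (3.52-fold), Ddit4 (2.17-fold), the death gene Bbc3 (2.09-fold), Pmaip1 (2.02-fold), Cdkn1a (2.01-fold) and Btg2 (1.92-fold). The lowest were Plk3 (0.560-fold), Cdkn2a (0.567-fold) and Tigar (0.612-fold). These 9 genes were named after their values were seen. Experiment and any batch of culture, library or sequencing cannot be told apart in this comparison, which carries no test. Primitive endoderm markers summed to 172.9 to 177.8 CPM in untagged input of experiment 1 and to 69.8 to 78.5 CPM in experiment 2. These sums were scaled within each experiment, and the part of the markers in the differences was not tested.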
